A study of Homo sapiens with 9 samples.

Results

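Aminoacyl-tRNA synthetases are the enzymes that join each amino acid to its tRNA, and human cells use one set of them in the cytosol and another in mitochondria. Their genes were chosen by symbol, as those with a one-letter amino acid code before ARS and an optional 2, together with EPRS, FARSA and FARSB, and 36 of the 26475 symbols in the table are described. The suffix 2 marks the mitochondrial enzymes, which gave 20 cytosolic and 16 mitochondrial genes. All 36 genes passed the filter on low counts and were among the 16417 genes tested. The rule uses symbols alone and no measured value.

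Messenger RNA was sequenced from A375, an established human melanoma cell line, treated for 24 h with the vehicle DMSO, with 5 µM TP-472 or with 10 µM TP-472, a small molecule that binds the bromodomains of BRD9 and BRD7. BRD9 and BRD7 are subunits of SWI/SNF chromatin remodelling complexes. Each of the 3 groups had 3 libraries, which the submitters call biological replicates, and all groups were grown in the same medium with serum. The groups differed in TP-472 only, so they describe 1 cell line and 1 time point, and no inactive analogue was among the 9 libraries.

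Several synthetases are known to act together. The cytosolic enzymes for leucine, isoleucine, methionine, glutamine, arginine, lysine and aspartate join EPRS, which charges both glutamate and proline, in the multisynthetase complex on the scaffold proteins AIMP1, AIMP2 and EEF1E1, while the other cytosolic enzymes work outside it. FARSA and FARSB are the subunits of one cytosolic phenylalanine enzyme. Many cytosolic synthetase genes are known targets of ATF4, the transcription factor of the amino acid and integrated stress response. GARS and KARS each encode both the cytosolic and the mitochondrial form, and stand here with the cytosolic genes.

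The libraries held 42483091 to 51298130 expected counts, and the synthetase genes were covered by 319 counts (FARS2) to 18918 counts (FARSA) in a library. Levels are given as CPM, counts scaled to the size of the library with TMM factors, and, because CPM is a share of a library, less RNA from one gene and more RNA from the others cannot be told apart. The melanoma markers SOX10 and PRAME stood at 417 and 169 CPM on average in DMSO and MITF at 31.9 CPM, but the pigment genes TYR and DCT were at 0 in every DMSO library, and of the 4 markers of other cells PTPRC, EPCAM and ALB were under 1 CPM in all 9 libraries and PECAM1 was between 0.76 and 2.12 CPM. The first 10 µM library differed from its fellows. A trend on gene length and GC content took up 6.26% of the variance of its log2 deviations from its group mean. The share was 2.61% and 3.06% in the other 10 µM libraries and at most 0.319% in the DMSO and 5 µM libraries. Each library was set against its own group, so these shares describe spread among replicates and not a change from DMSO.

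Levels in DMSO were compared per length of annotated exon. FARSA was the highest, at 116 ± 5.91 CPM per kb (SD, n = 3), and FARS2, the mitochondrial phenylalanine enzyme, was the lowest at 1.69 ± 0.236 CPM per kb. FARSB, the partner subunit of FARSA, stood at 10.6 ± 0.339 CPM per kb. The cytosolic genes took most of the upper places, with EPRS at 66.4 ± 0.598, KARS at 59.8 ± 1.31 and RARS at 59.2 ± 1.74 CPM per kb. IARS2, the mitochondrial isoleucine enzyme, was the exception at 69.9 ± 0.884 CPM per kb, second in the order, and had rank 5 when the longest transcript was taken as the length. Of the neighbours in this order, 22 pairs did not overlap between the DMSO libraries and 13 did, KARS and RARS among the latter. The order within such overlapping pairs is not resolved. Places also depended on the length taken, for pairs without overlap too. By the longest transcript KARS had rank 2, RARS 3, EPRS 7 and FARSB 29, while FARSA stayed at 1 and FARS2 at 36.

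**Figure D1:**
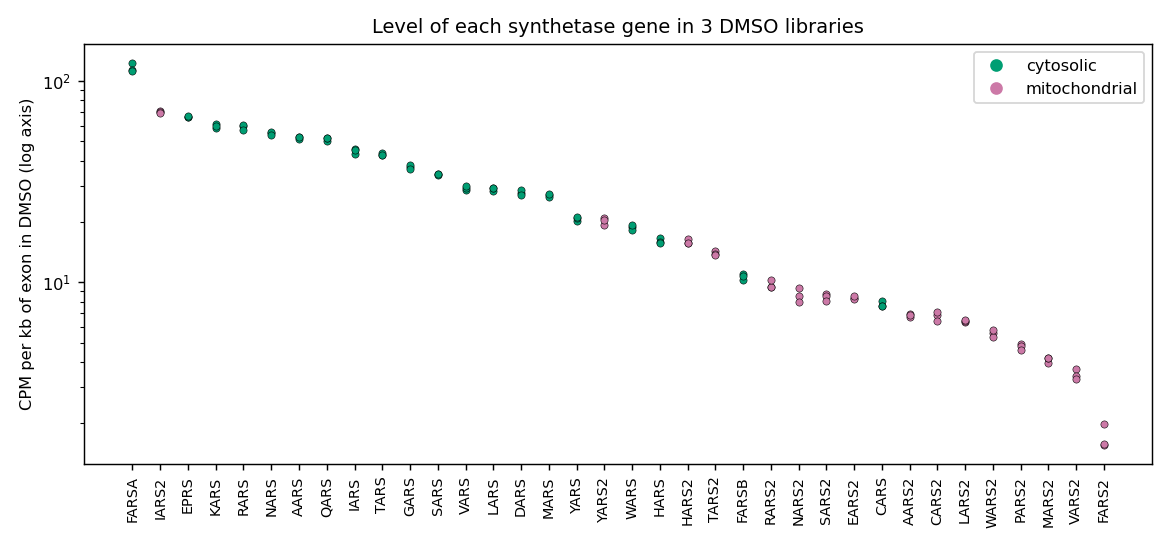
Level of each of the 36 genes in DMSO, in CPM per kb of annotated exon on a log axis, with 1 point for each of 3 libraries. FARSA stands at the top at 116 CPM per kb on average and FARS2 at the bottom at 1.69 CPM per kb, and the mitochondrial genes other than IARS2 lie at 20.1 CPM per kb (YARS2) or less on average.

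The question of the comparison with DMSO was which genes change in cells treated with TP-472. At 10 µM, 9 synthetase genes rose and 4 fell by edgeR's quasi-likelihood test at an adjusted p under 0.05, and 23 did not pass. The rise took 25% of the synthetase genes against 16.4% of all genes tested, and the fall 11.1% against 18%. Together 36.1% of the synthetases passed, against 34.3% of all genes. At an unadjusted p under 0.05 there were 18 synthetases, where 44% of all genes were. Every 10 µM library lay above every DMSO library in 13 synthetase genes and below in 6, as it did for 23.4% and 26% of all genes. The changes were small: with a fold of at least 1.5 as well, only SARS of the 36 rose, where 8.57% of all genes rose, and none fell, where 10.5% of all genes fell. None of these 36 had a log2 fold change below -0.40 at 10 µM. The median log2 fold change over the 36 genes was 0.090, beside 0.011 over all genes tested. Without the first 10 µM library, 13 synthetases rose and 7 fell, where 23% and 25.8% of all genes did.

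The cytosolic genes carried most of the rise. Among them 7 of 20 rose and 3 fell, with a median log2 fold change of 0.18, and 14 had a positive value. Among the mitochondrial genes 2 of 16 rose and 1 fell, with a median of 0.034. Of all genes tested, 16.4% rose and 18% fell. With the first 10 µM library left out, 10 cytosolic genes rose and 4 fell (median 0.11) and 3 mitochondrial genes rose and 3 fell (median 0.038), where 23% and 25.8% of all genes did. Summed over the 20 cytosolic genes, the DMSO libraries held 3902 ± 5.15 CPM, the 5 µM libraries 3918 ± 15.9 CPM and the 10 µM libraries 4176 ± 47.7 CPM (mean ± SD, n = 3). The summed level of the 16 mitochondrial genes was 804 ± 4.07, 790 ± 16 and 764 ± 19.7 CPM in the same order. The cytosolic sum at 10 µM thus lay above every DMSO library and the mitochondrial sum below. IARS2 carried the lower mitochondrial sum, and the other 15 genes together held 513 ± 2.06, 535 ± 10.6 and 543 ± 12.8 CPM.

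**Figure D2:**
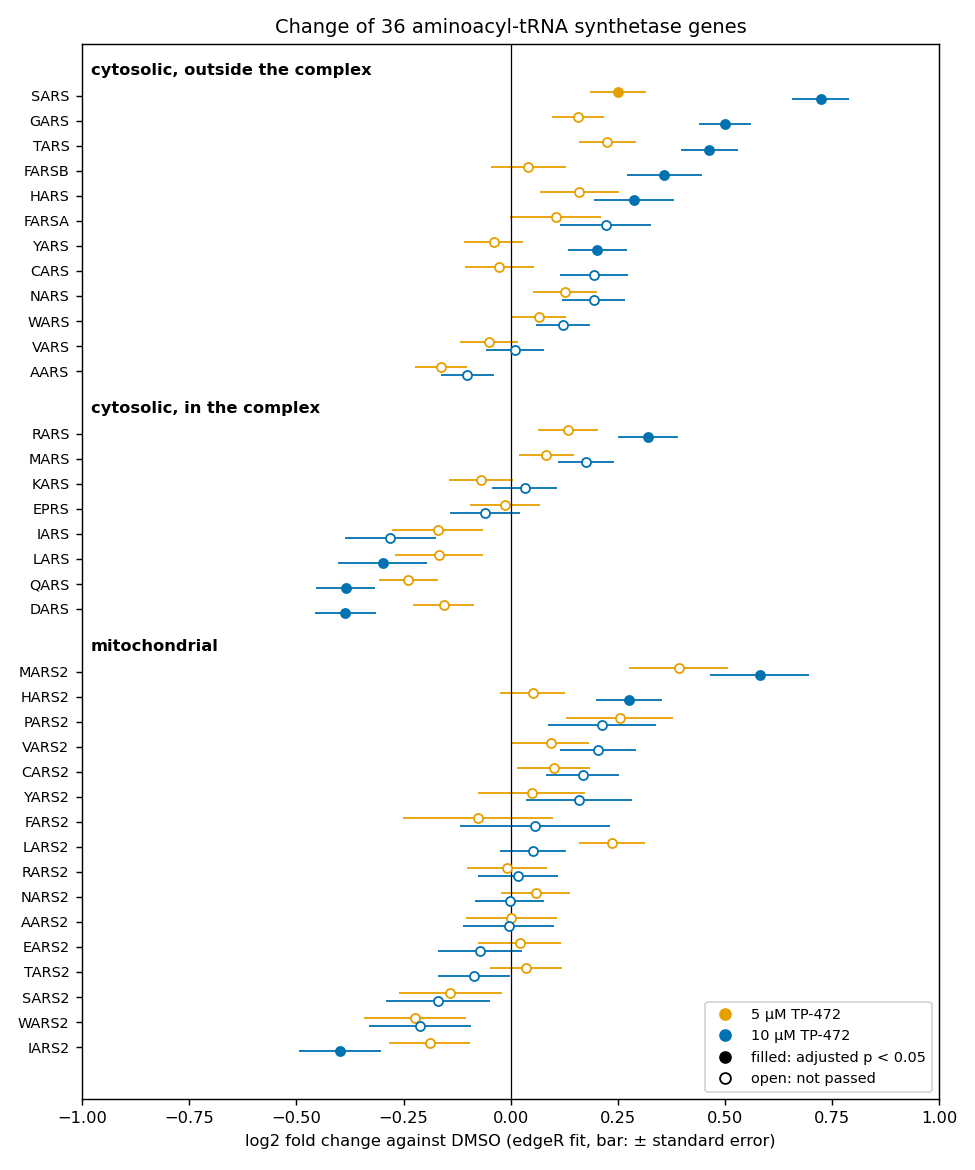
Log2 fold change against DMSO of the 36 genes at 5 µM and 10 µM, with the standard error of the edgeR fit, for cytosolic genes outside and inside the multisynthetase complex and for mitochondrial genes. Filled points passed an adjusted p of 0.05: 13 at 10 µM, from SARS at 0.72 to IARS2 at -0.40, and SARS alone at 5 µM.

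SARS, which charges serine tRNA and also supplies the tRNA for selenocysteine, rose the most. Its gene lies at chr1:109213918-109238169 on the plus strand of GRCh38. Its levels were 133, 131 and 133 CPM in DMSO, 156, 154 and 162 CPM at 5 µM, and 231, 208 and 216 CPM at 10 µM. The groups did not overlap and followed the dose. SARS changed by 0.25 on the log2 scale (SE 0.07, adjusted p = 0.0397) at 5 µM and 0.72 (SE 0.07, adjusted p = 3.39e-05) at 10 µM, a 1.65-fold rise, and the doses differed by 0.47 (SE 0.07, adjusted p = 0.00244). The rise at 5 µM did not pass when any 1 of the DMSO or 5 µM libraries was left out (adjusted p up to 0.17).

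GARS, the glycine enzyme of both compartments (chr7:30594681-30634033, plus strand), followed the same course. It stood at 155, 158 and 152 CPM in DMSO, at 170, 177 and 172 CPM at 5 µM and at 224, 220 and 215 CPM at 10 µM. No group overlapped another. At 10 µM the rise was 0.50 on the log2 scale (SE 0.06, adjusted p = 0.000202). At 5 µM the change was 0.16 (SE 0.06), which did not pass (adjusted p = 0.140), while the doses differed by 0.34 (SE 0.06, adjusted p = 0.00835), which became 0.33 and 0.34 without the first or the third 5 µM library (adjusted p = 0.0522 and 0.0517).

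FARSB, the beta subunit of the phenylalanine enzyme (chr2:222570536-222656337, minus strand), was flat at the lower dose. Its values were 34.6, 36.9 and 36.1 CPM in DMSO, 33.9, 36.1 and 40.7 CPM at 5 µM, and 48.4, 45.1 and 44.4 CPM at 10 µM. The 10 µM libraries lay above all others, and the 5 µM libraries overlapped DMSO. FARSB rose by 0.36 at 10 µM on the log2 scale (SE 0.09, adjusted p = 0.0103, and 0.0551 without the first DMSO library), and the change between the doses was 0.32 (SE 0.09, adjusted p = 0.0526), which did not pass. Its partner FARSA had a log2 fold change of 0.22 (SE 0.11) at 10 µM and did not pass (adjusted p = 0.137). The mitochondrial counterpart FARS2 (chr6:5261044-5829192, plus strand) read 9.5, 7.51 and 7.54 CPM in DMSO, 7.65, 6.93 and 8.7 CPM at 5 µM and 7.56, 10.6 and 7.4 CPM at 10 µM, and these overlapped.

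The other cytosolic genes that rose at 10 µM were TARS (threonine) with a log2 fold change of 0.46, RARS (arginine) with 0.32, HARS (histidine) with 0.29 and YARS (tyrosine) with 0.20. RARS was at 0.17 with the length and GC trend removed (adjusted p = 0.0126), and HARS at 0.18 without the first 10 µM library (adjusted p = 0.0061). TARS and RARS followed the dose with no overlap between groups. TARS stood at 246, 252 and 244 CPM in DMSO, 301, 279 and 287 CPM at 5 µM and 326, 338 and 359 CPM at 10 µM, and its change between the doses was 0.24 (SE 0.07, adjusted p = 0.0560), which did not pass. HARS and YARS were close to the threshold, with adjusted p = 0.0359 and 0.0454, and neither passed when any 1 of the DMSO or 5 µM libraries was left out (adjusted p up to 0.127 and 0.169). YARS also missed it without the third 10 µM library (adjusted p = 0.0575).

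DARS, which charges aspartate tRNA within the complex, fell the most of the cytosolic genes (chr2:135906677-135986100, minus strand). It stood at 112, 115 and 108 CPM in DMSO, 99.9, 99.2 and 101 CPM at 5 µM, and 80.8, 83.2 and 91.9 CPM at 10 µM. The groups fell with the dose and did not overlap. The log2 fold change was -0.39 (SE 0.07, adjusted p = 0.00253) at 10 µM and -0.16 (SE 0.07, adjusted p = 0.215) at 5 µM. QARS, the glutamine enzyme, fell by nearly the same amount, with a change of -0.38 (SE 0.07, adjusted p = 0.0021), from 237, 244 and 244 CPM in DMSO to 198, 172 and 184 CPM. LARS, the leucine enzyme, was at the threshold with -0.30 (SE 0.10, adjusted p = 0.049), which did not pass when any 1 of the DMSO or 5 µM libraries was left out (adjusted p up to 0.132) or with upper-quartile factors (adjusted p = 0.0694), and its first 10 µM library, at 158 CPM, was far below the others at 211 and 206 CPM. Without that library the change of LARS was -0.18 (adjusted p = 0.00136).

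**Figure D3:**
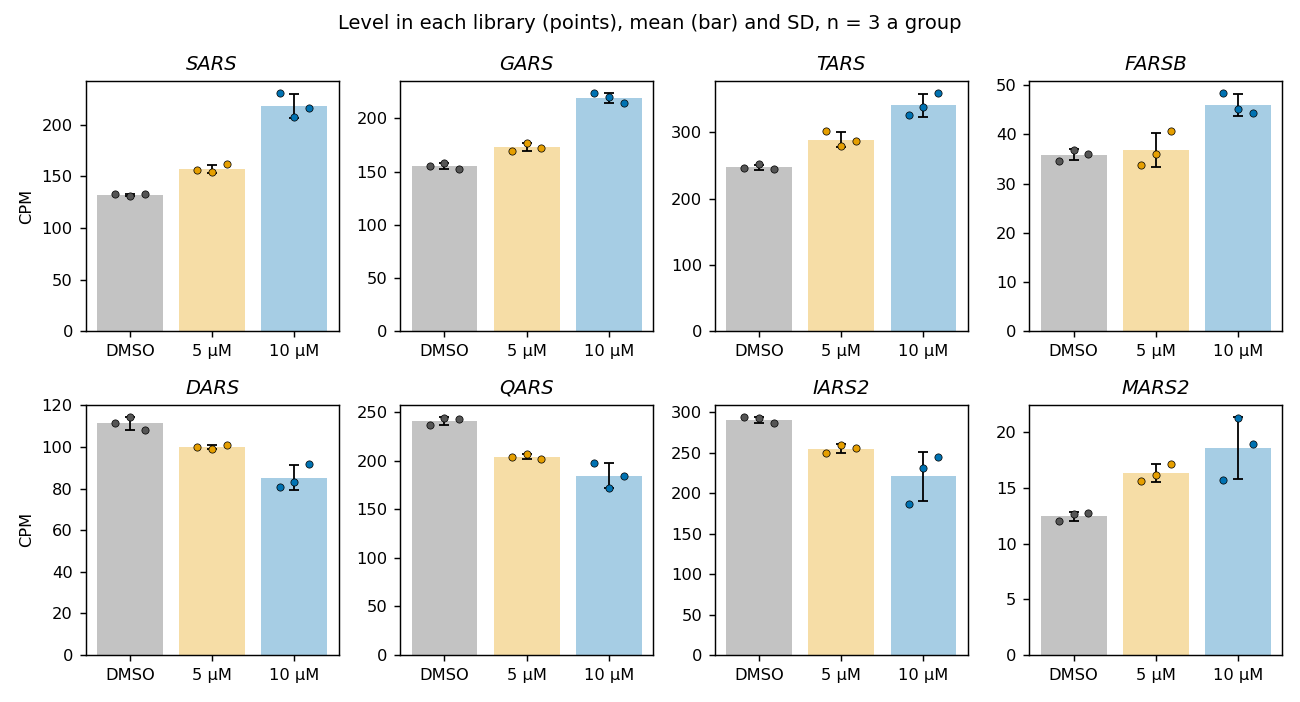
CPM of 8 synthetase genes in each of the 9 libraries, as points, with the mean (bar, from 0) and the SD of 3 libraries for DMSO, 5 µM and 10 µM TP-472. SARS, GARS and TARS step up with the dose, DARS, QARS and IARS2 step down, and the 5 µM libraries of FARSB overlap DMSO.

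The 3 cytosolic genes that fell, DARS, QARS and LARS, all encode enzymes of the multisynthetase complex. Of the 8 enzymes of the complex, 1 rose (RARS) and 3 fell, with a median log2 fold change of -0.17 at 10 µM. Of the 12 cytosolic genes outside it, 6 rose, none fell and 11 had a positive value, with a median of 0.21. Of all genes 16.4% rose and 18% fell. The count of 0 that fell outside the complex by edgeR was also 0 at an unadjusted p under 0.05 and 0 by DESeq2. The exception among those 12 was AARS, the alanine enzyme, at -0.10 (SE 0.06, adjusted p = 0.236). Without the first 10 µM library the complex had 2 that rose and 4 that fell (median -0.10), and the genes outside had 8 and 0 (median 0.16), where 23% and 25.8% of all genes rose and fell. With the trend on gene length and GC content removed these counts were 2 and 4 (median -0.18) inside and 9 and 0 (median 0.23) outside. In that fit 19.5% and 20.9% of all genes rose and fell. With upper-quartile scaling the counts were 2 and 2 (median -0.13) inside and 7 and 0 (median 0.25) outside. Of all genes 18.4% then rose and 16.3% fell. The difference between these gene groups was not tested, since genes of a group are not replicates.

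Library by library, the median log2 level of the 8 complex genes against the DMSO mean was -0.12, -0.12 and -0.08 at 5 µM and -0.27, -0.08 and -0.10 at 10 µM. For the 12 genes outside the complex it was 0.10, 0.07 and 0.09 at 5 µM and 0.37, 0.17 and 0.17 at 10 µM. The sign was thus the same in all 6 treated libraries, and the first 10 µM library was the extreme of both series. Among the scaffolds, AIMP2 rose by a log2 fold change of 0.93 (SE 0.18, adjusted p = 0.00289), from 26.5, 24.4 and 25.3 CPM in DMSO to 65.3, 37.4 and 42.8 CPM at 10 µM. AIMP1 at 0.11 (adjusted p = 0.347) and EEF1E1 at 0.10 (adjusted p = 0.476) did not pass.

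Synthetases are also divided by the fold of the catalytic domain. Of the 10 class II cytosolic genes 5 rose and 1 fell at 10 µM (median log2 fold change 0.25). Of the 10 class I genes 2 rose and 2 fell (median 0.07), where 16.4% of all genes rose and 18% fell. EPRS, which did not pass, was counted with class I for glutamate, though its proline activity belongs to class II. Without the first 10 µM library the counts were 6 and 1 for class II and 4 and 3 for class I. In that fit 23% of all genes rose and 25.8% fell. With the length and GC trend removed the counts were 6 and 1 for class II and 5 and 3 for class I. Of all genes 19.5% then rose and 20.9% fell. The complex holds mostly class I enzymes, so the counts for class and for the complex rest on shared genes.

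Among the mitochondrial genes IARS2, the isoleucine enzyme, fell, with a log2 fold change of -0.40 (SE 0.10, adjusted p = 0.00948) at 10 µM. Its levels were 294, 293 and 287 CPM in DMSO, 250, 260 and 256 CPM at 5 µM and 187, 231 and 245 CPM at 10 µM. The groups fell with the dose and did not overlap, and the first 10 µM library was the lowest. Without that library the change was -0.29 (adjusted p = 1e-05). MARS2, the methionine enzyme and a gene with a single exon (chr2:197705369-197708387, plus strand), rose the most of the mitochondrial genes. Its values were 12, 12.6 and 12.7 CPM in DMSO, 15.6, 16.2 and 17.2 CPM at 5 µM and 15.7, 21.2 and 18.9 CPM at 10 µM. Both treated groups lay above DMSO and overlapped each other. MARS2 had a log2 fold change of 0.39 (SE 0.12, adjusted p = 0.0622) at 5 µM and 0.58 (SE 0.12, adjusted p = 0.00382) at 10 µM.

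HARS2, the mitochondrial histidine enzyme, rose by 0.28 on the log2 scale (SE 0.08, adjusted p = 0.0194), which did not pass when any 1 of the DMSO libraries was left out (adjusted p up to 0.084) or with the length and GC trend removed (0.13, adjusted p = 0.192). Its reads are partly shared. HARS and HARS2 are related in sequence and are neighbours on opposite strands, and HARS2 shares 11.7% of its exon length with HARS. Their expected counts were fractional in every library while their sum was a whole number, 9326 in the first DMSO library and 11919 in the first 10 µM library, so the split between the pair is an estimate. In all but the first 10 µM library the same held for DARS with its antisense gene DARS-AS1, which took at most 59 counts in a library. The expected counts of WARS2 were also fractional in every library, so its level is an estimate too. SARS2 shares 46.2% of its exon length with another gene on its own strand and VARS2 22% with GTF2H4, and MARS shares 12.4% with ARHGAP9 and DDIT3 on the opposite strand. The sources used here do not say whether strand was used in counting, and the values of these genes are less certain.

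The other 13 mitochondrial genes did not pass at 10 µM, with log2 fold changes from -0.21 (WARS2) to 0.21 (PARS2). SARS2, the mitochondrial partner of SARS (chr19:38915266-38930896, minus strand), read 28.1, 27.5 and 26.1 CPM in DMSO, 23.7, 25.3 and 25.1 CPM at 5 µM and 29.2, 22.7 and 20.8 CPM at 10 µM. The 10 µM libraries overlapped DMSO, with the first one above it and the other two below. Its change at 10 µM was -0.17 on the log2 scale (SE 0.12, adjusted p = 0.312), and without the first 10 µM library it was -0.33 (adjusted p = 0.00204). TARS2, the partner of TARS (chr1:150487364-150507609, plus strand), read 58, 56.4 and 55.8 CPM in DMSO, 57.6, 59.1 and 58 CPM at 5 µM and 59.8, 51.5 and 49.3 CPM at 10 µM. Its groups overlapped, and the change at 10 µM was -0.09 on the log2 scale (SE 0.08, adjusted p = 0.474). It became -0.17 without the first 10 µM library (adjusted p = 0.0124) and -0.16 with the length and GC trend removed (adjusted p = 0.0312). The cytosolic genes that did not pass ran from -0.28 (IARS) to 0.22 (FARSA), with KARS at 0.03 and VARS at 0.01.

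For 13 amino acids a cytosolic and a mitochondrial gene form a one-to-one pair, and their ratio within a library does not depend on library scaling. The log2 ratio of SARS to SARS2 was 2.24, 2.25 and 2.34 in DMSO, 2.72, 2.60 and 2.69 at 5 µM and 2.98, 3.19 and 3.38 at 10 µM. The cytosolic share of this pair went up with the dose without overlap. At 10 µM the ratio lay above all DMSO libraries in 5 pairs, below in 3 and overlapped in 5. A higher ratio is not always a cytosolic rise. In 1 of the 5 pairs above, IARS (-0.28, not passed) and IARS2 (-0.40) were both lower. In another, neither WARS (0.12) nor WARS2 (-0.21) passed. Of all single genes tested, 23.4% lay wholly above DMSO at 10 µM and 26% wholly below. Such a share was not computed for ratios. The ratios are not corrected for the trend on gene length and GC content. TARS to TARS2 was the second largest increase, by 0.55 in the mean log2 ratio, and MARS to MARS2 and LARS to LARS2 the largest decreases, by -0.39 and -0.36.

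**Figure D4:**
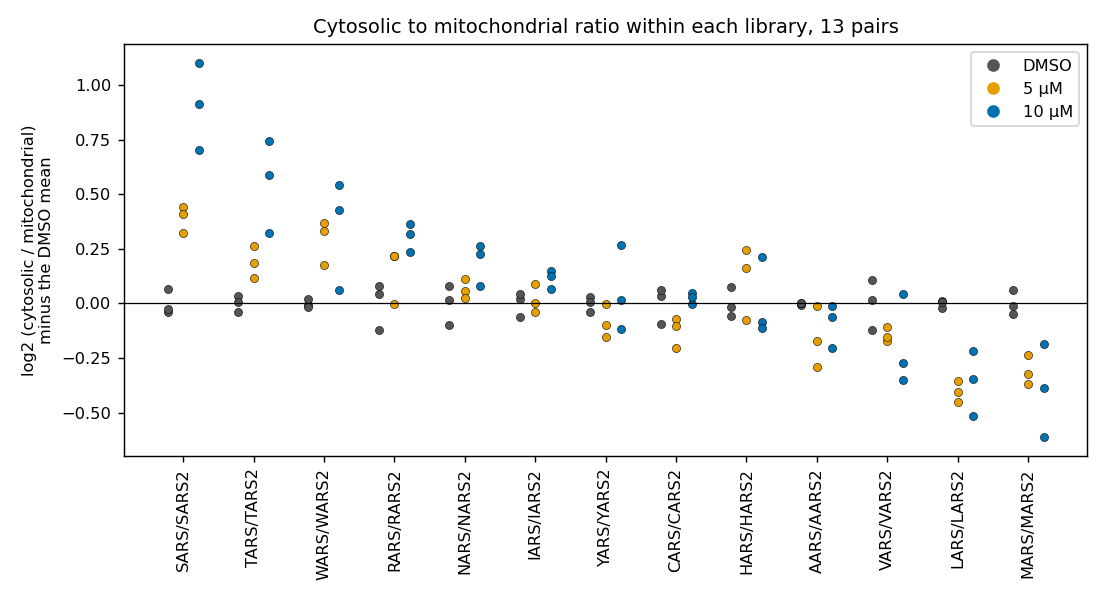
Log2 ratio of the cytosolic to the mitochondrial gene of 13 amino acids in each of the 9 libraries, less the mean of the 3 DMSO libraries of that pair. The ratio is above all DMSO libraries at 10 µM in 5 pairs, led by SARS and SARS2, and below them in 3 pairs. Of all single genes tested, 23.4% lay wholly above DMSO at 10 µM and 26% wholly below.

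At 5 µM only SARS passed, which is 2.78% of the synthetases, while 4.4% of all genes rose, and none of the 36 fell by edgeR, while 5.81% of all genes fell. At an unadjusted p under 0.05 there were 7 synthetases, 2 of them lower, where 24.4% of all genes were. DESeq2 called 5 higher and 2 lower (AARS and QARS), but its share of all genes is not given here, so these counts have no background. The 5 µM libraries lay wholly above DMSO in 9 synthetases and wholly below in 9, as for 23.7% and 25% of all genes. This count depended on which libraries entered the fit. Without the first 10 µM library, which is in neither of these groups, 9 rose and 6 fell at 5 µM, where 16.5% and 17.6% of all genes did. SARS, TARS, RARS, GARS, HARS, NARS, MARS2, LARS2 and PARS2 were higher, and QARS, LARS, IARS, AARS, DARS and IARS2 were lower. The largest of these was MARS2 at 0.39, and QARS at -0.24 was the largest fall. With only the DMSO and 5 µM libraries in the fit, 10 rose and 7 fell, where 19.3% and 20.7% of all genes did. The synthetases that rose were 25% and 27.8% of the 36 in these refits, and those that fell 16.7% and 19.4%.

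Between the doses, SARS and GARS were higher at 10 µM than at 5 µM and none of the 36 was lower by edgeR, where 2.87% of all genes were higher and 5.53% lower. At an unadjusted p under 0.05, 2 synthetases were lower, and DESeq2 called 1 lower (DARS), again with no share of all genes by that method. Without the first 10 µM library the edgeR counts were 10 and 3, where 8.8% of all genes were higher and 15.4% lower. The 10 µM libraries lay wholly above the 5 µM libraries in 10 synthetases and wholly below in 5, as for 12.1% and 16.2% of all genes. A stepwise order from DMSO over 5 µM to 10 µM, without overlap between any groups, was seen in 7 synthetases. It was rising in SARS, GARS, TARS and RARS, as in 5.68% of all genes, and falling in DARS, QARS and IARS2, as in 9.24% of all genes. Both comparisons with DMSO use the same DMSO libraries, so their values stand side by side and are not independent.

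Genes known to answer to ATF4 gave the setting for the cytosolic synthetases. Of 28 such genes other than synthetases, 15 rose and 5 fell at 10 µM, with a median log2 fold change of 0.31. These are 53.6% and 17.9% of the list, where 16.4% of all genes rose and 18% fell. With a fold of at least 1.5 as well, 11 rose and 3 fell, where 8.57% and 10.5% of all genes did. The lowest value of the list was -1.10. At 5 µM 7 of the list rose and 4 fell (median 0.024), where 4.4% and 5.81% of all genes did. Without the first 10 µM library 18 of the list rose and 6 fell, where 23% and 25.8% of all genes did. The 3 with the smallest p were ATF3, a stress transcription factor, at 5.00, SESN2, which senses leucine for mTORC1, at 2.14, and DDIT3, which encodes CHOP, at 2.98. ATF4 itself stood at 218, 218 and 219 CPM in DMSO, 196, 194 and 198 CPM at 5 µM and 372, 277 and 267 CPM at 10 µM, so it was higher than DMSO at 10 µM only (log2 fold change 0.48, adjusted p = 0.0086). Its 5 µM libraries lay below DMSO, with a log2 fold change of -0.16 (adjusted p = 0.458). Of the 9 genes for eIF2 kinases, eIF2 phosphatase subunits, eIF2S1 and ATF4, 4 rose and 1 fell, which is 44.4% and 11.1% of them, and the 3 with the smallest p were PPP1R15A at 1.76, PPP1R15B at 0.57 and EIF2S1 at 0.31. Leaving out the first 10 µM library gave 5 that rose and 3 that fell. SARS, at 0.72, had the largest rise of the synthetases beside these values.

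The 300 bases around the annotated start, 250 before and 50 after it, were searched for the core shared by CEBP and ATF composite elements, spelled TGATGNAAN, and for its reverse complement NTTNCATCA, on RefSeq sequence of GRCh38.p14. Of the 36 synthetase genes 30 were in the promoter table, and some had several starts, which were searched together. AARS2, DARS, LARS, VARS, VARS2 and YARS were not in it and were not searched. DARS, LARS and YARS are among the genes called at 10 µM. The core was in 8 of 30 synthetase genes (26.7%), in 7 of 16 cytosolic genes (43.8%) and in 1 of 14 mitochondrial genes (7.14%), in 6 of 23 of the other ATF4 target genes in the table (26.1%) and in 1215 of 27305 genes of the whole table (4.45%). The matches, in capitals, are shown with 10 bases on each side along the strand of the gene, because 6 of the 7 cytosolic genes hold the same 8 letters.
AARS, chr16:70289676-70289704, minus strand: ttttctcgcaGTTGCATCAgccaagttag
CARS, chr11:3057408-3057436, minus strand: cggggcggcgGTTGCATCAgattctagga
GARS, chr7:30594834-30594862, plus strand: ttacgcggcgATTTCATCAtgctccgagc
IARS, chr9:92293693-92293721, minus strand: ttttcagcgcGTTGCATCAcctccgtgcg
MARS, chr12:57488053-57488081, plus strand: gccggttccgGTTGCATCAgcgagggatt
NARS, chr18:57621804-57621832, minus strand: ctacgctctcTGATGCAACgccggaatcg
TARS, chr5:33440956-33440984, plus strand: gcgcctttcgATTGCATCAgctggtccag
YARS2, chr12:32756076-32756104, minus strand: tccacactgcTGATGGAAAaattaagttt
The first base of the match lay at -188 from the start in AARS, -3 in CARS, -14 in IARS, -5 in MARS, 15 in NARS, 2 in TARS and -197 in YARS2, and at -34 from the second start of GARS. AARS, CARS, IARS, MARS, TARS and NARS hold TTGCATCA or its reverse complement, while GARS and YARS2 differ within it.

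Matches and changes at 10 µM were then set side by side. Of the 8 genes with a match TARS (0.46) and GARS (0.50) rose, where 25% of the 36 synthetases and 16.4% of all genes rose. AARS (-0.10), CARS (0.19), IARS (-0.28), MARS (0.18), NARS (0.19) and YARS2 (0.16) did not pass. By edgeR without the first 10 µM library, NARS (0.26, adjusted p = 3.51e-05) and MARS (0.19, adjusted p = 0.00226) also rose. IARS fell in that fit (-0.16, adjusted p = 0.00293), where 23% of all genes rose and 25.8% fell. SARS, with the largest rise, has no match in this window. The 250 bases before the first SARS start are shown as the promoter of that gene, with no capitals because there was no match, and 65.2% of them are G or C.
SARS, chr1:109213643-109213892, plus strand: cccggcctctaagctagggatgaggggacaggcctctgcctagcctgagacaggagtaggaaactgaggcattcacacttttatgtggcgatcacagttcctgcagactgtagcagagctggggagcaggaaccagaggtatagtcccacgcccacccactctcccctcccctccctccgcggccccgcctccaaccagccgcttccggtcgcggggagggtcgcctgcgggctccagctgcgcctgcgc

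The rest of the charging and translation machinery was set beside the synthetases at 10 µM, where 16.4% of all genes rose and 18% fell. Of 17 genes for tRNA maturation and export 7 rose and 1 fell (median log2 fold change 0.30), with RPP40 and POP4, subunits of RNase P, at 0.88 and 0.89 and the tRNA ligase RTCB at 0.43. Of these genes 11 rose and 2 fell without the first 10 µM library, where 23% and 25.8% of all genes did. None of 6 cytosolic elongation factor genes rose by edgeR (EIF5A at an unadjusted p under 0.05, 0 by DESeq2), and EEF2 fell (-0.35), while 1 rose and 4 fell without the first 10 µM library. In mitochondria, of 4 genes that complete charging, which act on glutamine and on initiator methionine, QRSL1 (0.44) and MTFMT (0.39) rose, and of 9 translation factors 4 rose, among them MRRF, MTIF2 and GFM1. Of 77 mitochondrial ribosomal protein genes 29 rose and 1 fell, with a median of 0.36, and MRPL46, MRPS23 and MRPL52 had the smallest p. With the first 10 µM library left out, 35 of them rose and 4 fell, and the median was 0.16. With the length and GC trend removed 29 of them rose and 2 fell, and the median was 0.20. Of all genes 19.5% then rose and 20.9% fell. The mitochondrial synthetases, with 2 up and 1 down of 16 and a median of 0.034, stood below these mitochondrial lists, a difference that was not tested.

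**Figure D5:**
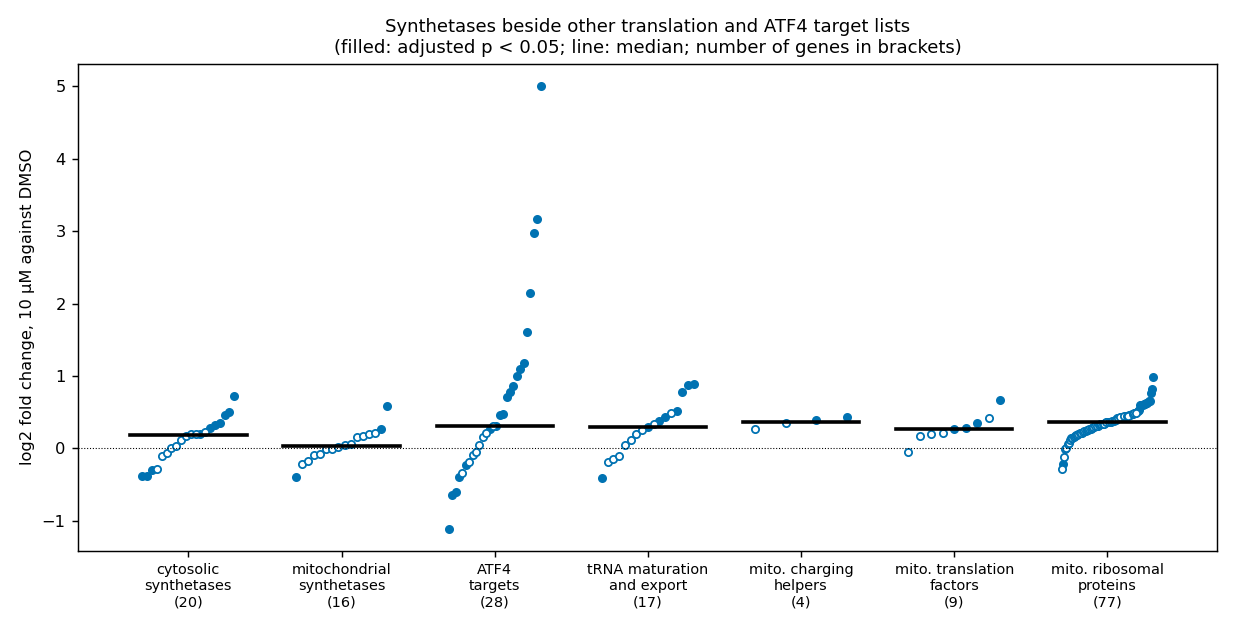
Log2 fold change at 10 µM against DMSO of each gene of 7 lists, with filled points for an adjusted p under 0.05, a line at the median and the number of genes in brackets. The medians are 0.18 for cytosolic and 0.034 for mitochondrial synthetases, 0.31 for ATF4 targets and 0.36 for mitochondrial ribosomal proteins, and the synthetases span the narrow range from -0.40 to 0.72.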

How the data were processed

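RNA from A375 cells was purified with oligo-dT beads and made into strand-specific libraries, as the labels and the methods state, while the design text names depletion of ribosomal RNA. Ribosomal RNA symbols took 8.20% to 19.9% of the counts. The authors deposited expected counts per gene symbol, neither scaled nor pooled, with 10.6% to 13.8% of the values in a library not whole. The submitters' processing notes name Bowtie2 2.1.0, RSEM 1.2.15 and hg38, and the annotation they used is not stated in the labels or methods. Samples were grouped by the labels.

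Counts were rounded and tested in edgeR 4.0.16 (R 4.3.3) with TMM factors (0.957 to 1.029), filterByExpr and the quasi-likelihood F test in 1 fit of all 9 libraries, with Benjamini-Hochberg adjustment over 16417 genes. CPM divides rounded counts by TMM-scaled library size. Alternatives were DESeq2 1.42.0, limma-voom 3.58.1, other scaling and filters, a replicate block, ribosomal RNA genes left out, removal of a trend on length and GC content (a spline on 15323 genes with both values), 2 groups at a time and each library left out. Scripts were tested on simulated data. Exon lengths, overlaps and gene positions came from GENCODE on GRCh38, and promoters from RefSeq. Replicates of a group differed by more than counting error, with a chi-square per degree of freedom of 5.44 or more, so none were counted as 1. Library depth limits precision through counting error, which is small at these counts, and the spread is between 3 libraries.

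The rule matched 37 symbols, of which 1 is not reported here. The genes and lists were chosen with earlier results of these data known. Values per library are given for synthetases that passed with a fold of at least 1.5, the 4 with the smallest p between the doses, the largest cytosolic fall and mitochondrial rise, and mitochondrial partners, and others were added after their values were seen. The 3 genes with the smallest p at 10 µM are named from each list.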

Additional observations from a re-analysis of the deposited data

Results flagged for a closer look

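Between the doses, 2 synthetase genes differed by a direct test of 10 µM against 5 µM (edgeR's quasi-likelihood test, adjusted over all genes). The log2 fold change was 0.47 for SARS (adjusted p = 0.00244) and 0.34 for GARS (adjusted p = 0.00835), each higher at 10 µM. In both genes the 3 libraries at 10 µM lay above the 3 at 5 µM, as they did for 12.1% of all genes.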

How the results depend on the processing

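At 10 µM, 8 of the 13 called synthetases (SARS, GARS, TARS, RARS, MARS2, DARS, IARS2 and QARS) kept their call under all 11 refits and with each of 9 libraries left out, FARSB lost it once (without DMSO replicate 1, adjusted p = 0.0551), HARS, HARS2, YARS and LARS lost it more often, and no called value changed sign. Of the 23 synthetases not called at 10 µM, 13 were called under at least 1 refit or with 1 library left out, MARS in 6 and NARS in 3 of the 11 refits. Of 365 values for single genes, 311 kept their side of the threshold or stayed within the spread, 48 lost and 3 gained a call, and 3 levels per length moved with the longest transcript as the length.

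Counts are given as higher and lower genes. At 5 µM (main 1 and 0) they were 2 higher with upper-quartile factors, 0 higher with no filter, 3 higher with at least 1 CPM in at least 3 libraries, 5 and 2 with DESeq2, 1 lower with DESeq2-type size factors and with ribosomal RNA genes left out, 4 and 1 with the length and GC trend removed, 10 and 7 with only the 2 groups compared, and 0 with a fold of at least 1.5. At 10 µM (9 and 4) they were 7 higher with no filter, the replicate block or only the 2 groups, and 10 higher with DESeq2-type size factors. Upper-quartile factors, the CPM filter and DESeq2 each gave 11 higher. The lower count was 3 with either of these size factors, the CPM filter, ribosomal RNA genes left out or only the 2 groups. The counts were 14 and 7 with the trend removed and 1 and 0 with the fold. Between the doses (2 and 0) they were 5 higher with DESeq2-type size factors, upper-quartile factors or the CPM filter, and 3 higher with limma-voom. DESeq2 gave 6 and 1, and leaving out ribosomal RNA genes gave 4 higher. The counts were 5 and 3 with the trend removed, 1 and 0 with 2 groups, and 0 and 0 with the fold. The cause of these shifts was not tested. With the trend removed, 8.53% of all genes rose and 9.69% fell at 5 µM, 19.5% and 20.9% at 10 µM, and 5.26% and 9.16% between the doses. With only the 2 groups these shares were 19.3% and 20.7%, 12.7% and 14.4%, and 0.712% and 1.38%. No share of all genes is given for the DESeq2, limma-voom and filter counts.

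The median log2 fold change of cytosolic genes moved at 10 µM from 0.18 to 0.23 (upper-quartile) and 0.16 (trend removed), between the doses from 0.097 to 0.13 and 0.054, and at 5 µM from 0.014 to 0.039 (trend removed). That of mitochondrial genes moved at 10 µM from 0.034 to 0.076 (upper-quartile), and between the doses from 0.0031 to 0.033 (upper-quartile) and -0.075 (trend removed).

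With 1 library left out, higher counts ran from 0 to 9 at 5 µM, 5 to 13 at 10 µM and 1 to 10 between the doses, and lower counts from 0 to 6, 3 to 7 and 0 to 3, the highest without the first 10 µM library. Cytosolic medians ran from -0.022 to 0.021, 0.11 to 0.18 and 0.069 to 0.11, and mitochondrial medians from 0.023 to 0.055, 0.018 to 0.039 and -0.023 to 0.044.

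Replicate numbers did not pair the libraries: deviations of same-numbered libraries correlated at -0.036 to 0.041, and 5 of 9 libraries correlated best with their own number. With the replicate block 0 synthetases were higher at 5 µM. With the block and the trend removed, counts were 4 and 1 at 5 µM, 11 and 7 at 10 µM and 5 and 1 between the doses. Cytosolic medians were then 0.038 at 5 µM and 0.054 between the doses, and the mitochondrial median between the doses was -0.081.

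Genes under 10 CPM such as FARS2 have wider errors (SE 0.17), and 3 libraries per group leave small changes unresolved.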

Other observations

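Of 6 genes that are related to the synthetases but outside the rule, TARSL2, a second cytosolic threonine enzyme, and PSTK, the kinase that prepares serine on the selenocysteine tRNA, rose at both doses, where 4.4% of all genes rose at 5 µM and 16.4% at 10 µM, and the other 4 passed at neither dose. With the first 10 µM library left out, 3 of the 6 rose and 1 fell at 10 µM, where 23% and 25.8% of all genes did. TARSL2 stood at 7.28, 6.36 and 5.58 CPM in DMSO, 10.3, 10.2 and 8.83 CPM at 5 µM and 10.4, 11.4 and 11.6 CPM at 10 µM, with log2 fold changes of 0.61 (adjusted p = 0.0163) and 0.80 (adjusted p = 0.00127). PSTK stood at 2.27, 1.75 and 1.96 CPM in DMSO, 3.55, 3.33 and 3.78 CPM at 5 µM and 7.17, 5.17 and 4.03 CPM at 10 µM, with log2 fold changes of 0.83 (adjusted p = 0.0472) and 1.45 (adjusted p = 0.00105). In both genes the treated libraries lay above every DMSO library. SEPSECS, which acts after PSTK, had a log2 fold change of 0.24 at 10 µM and did not pass (adjusted p = 0.0764).

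WARS is known as a synthetase gene that interferon gamma induces. Its log2 fold change at 10 µM was 0.12 (SE 0.06, adjusted p = 0.165). Of 7 interferon gamma response genes tested, GBP2 (-1.36) and GBP1 (-1.55) fell and TAP1 (0.35) rose at 10 µM, and the others did not pass. Thus 28.6% of this list fell and 14.3% rose, where 18% of all genes fell and 16.4% rose. Leaving out the first 10 µM library gave 1 that rose and 4 that fell, where 23% and 25.8% of all genes did. None of 7 melanocyte lineage markers tested passed at 10 µM by edgeR (PRAME at an unadjusted p under 0.05 and by DESeq2), with PRAME at -0.18 (adjusted p = 0.067), SOX10 at -0.09 and TYRP1 at 0.86, the last from under 1 CPM. Of these markers 2 fell without the first 10 µM library, where 25.8% of all genes fell.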
